A study of Homo sapiens with 30 samples.

Results

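The data described here are the RNA of Rh30 cells 2 h after a compound was given that marks the PAX3-FOXO1 fusion protein for destruction. Rh30 is an established human alveolar rhabdomyosarcoma line. In the line labelled Rh30_PAX3-FOXO1-FKBP the fusion carries an FKBP tag, and cells received either 500 nM dTAG for 2 h or DMSO, the vehicle. The 2 conditions hold 4 of the 30 samples of the series, 2 each, and the authors deposited 1 pooled column of estimated counts per condition. Of 23262 genes listed, 12330 passed a filter on low values. The 12325 described here leave out 5 of these that belong to 31 blood lineage genes set aside. The 2 samples of a condition cannot be separated, so no value has a replicate error, no test was made between the columns and genes are ranked by size. Counting intervals are printed for single genes, and these cover counting error only.

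The background for the compound is the line labelled Rh30_FOXO1-FKBP, where the tag sits on wild-type FOXO1, again with 2 samples at 500 nM dTAG for 2 h and 2 in DMSO. Both lines derive from Rh30 cells. Later columns of the PAX3-FOXO1-FKBP line, at 6, 24 and 72 h, use the same DMSO column, so their values stand beside those at 2 h and are not separate evidence. Levels in 10 single libraries labelled DMSO, of parental Rh30 and of the PAX3-FOXO1-FKBP clones 4, 10, 11 and 12 (2 each), show how far a gene varies without dTAG. The labels do not name the clone behind the time-course line. No protein was measured, so the amount of fusion left at 2 h is unknown here.

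PAX3-FOXO1 joins the DNA-binding domains of PAX3, a developmental factor of muscle precursors and neural crest, to the activation domain of FOXO1. In alveolar rhabdomyosarcoma it works as an activator at enhancers, beside the myogenic factors MYOD1 and MYOG. The cells express muscle regulators without completing muscle differentiation. dTAG links FKBP-tagged protein to a ubiquitin ligase, after which the proteasome degrades it within hours. An mRNA falls after its transcription stops only as fast as it decays, so a short time favours transcripts with short lives.

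All 10 rhabdomyosarcoma markers on the list passed the filter, and their median was 12423 normalised counts at 2 h of dTAG and 10558 in DMSO. Their median log2 change was -0.14, with 7 of 10 below 0 and 2 at least 1.5-fold lower, TFAP2B and FGFR4. MYOD1, the myogenic master regulator, had 33993 normalised counts at 2 h of dTAG, against 46041 in DMSO. Normalised counts are the deposited values scaled with trimmed mean of M values (TMM) factors to a common column size. Column totals were 30466960 at 2 h and 29595555 in DMSO.

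The 2 h column stands apart from the others in a group of blood lineage transcripts. Of the B lineage list, 17 of 44 genes had at least 10 counts and at least 4 times the level of every other column of the line. The same held for 13 of 39 pan-leukocyte genes, 1 of 13 T and NK cell genes, 0 of 12 myeloid genes and 0 of 9 erythroid genes. These 31 genes together had 3023 normalised counts at 2 h, against 75.4 in DMSO, and 57.2, 47.9 and 65.4 at 6, 24 and 72 h. Their share of all counts was 0.0104% at 2 h and 0.000266% in DMSO. In CPM, counts scaled by the library's total, they summed to 103.5 at 2 h, and to between 2.30 and 12.1 in the parental and clone libraries.

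General leukocyte genes and defining B cell genes led this group. LCP1, a leukocyte actin bundler, had 448 normalised counts at 2 h of dTAG, against 1.80 in DMSO. PTPRC, the pan-leukocyte surface phosphatase CD45, had 186 at 2 h and was listed at 0 in DMSO. MS4A1, the B cell antigen CD20, had 222 at 2 h and was listed at 0 in every other column. CD79A, a subunit of the B cell receptor, had 124 normalised counts at 2 h of dTAG, against 7.36 in DMSO. The class II gene HLA-DRA was listed at 0 at 2 h, and the T cell genes CD3E and CD2 were listed at 0 in all 5 columns. Whole-list sums were less far apart, and the lists also hold genes counted in every column, such as CD24 with 406 at 2 h and 338 in DMSO. The B lineage list summed to 5699 at 2 h, 3712 in DMSO, and 2171, 1270 and 1493 at 6, 24 and 72 h. The pan-leukocyte list summed to 8102 at 2 h and 6830 in DMSO, and the T and NK list to 121.5 at 2 h and 62.1 in DMSO.

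In all, 130 genes were raised in the 2 h column alone by the same rule, and 99 of them are on no blood list. LAYN, a hyaluronan receptor, was the single one of the 99 that was past 2-fold and passed the filter on low values. The other 4 genes that passed 2-fold and were at least 2 times higher at 2 h than in every other column are ARHGDIB, HCLS1, LPXN and NUP210. Their values are given below apart from the rest. The source of these transcripts was not tested.

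**Figure D1:**
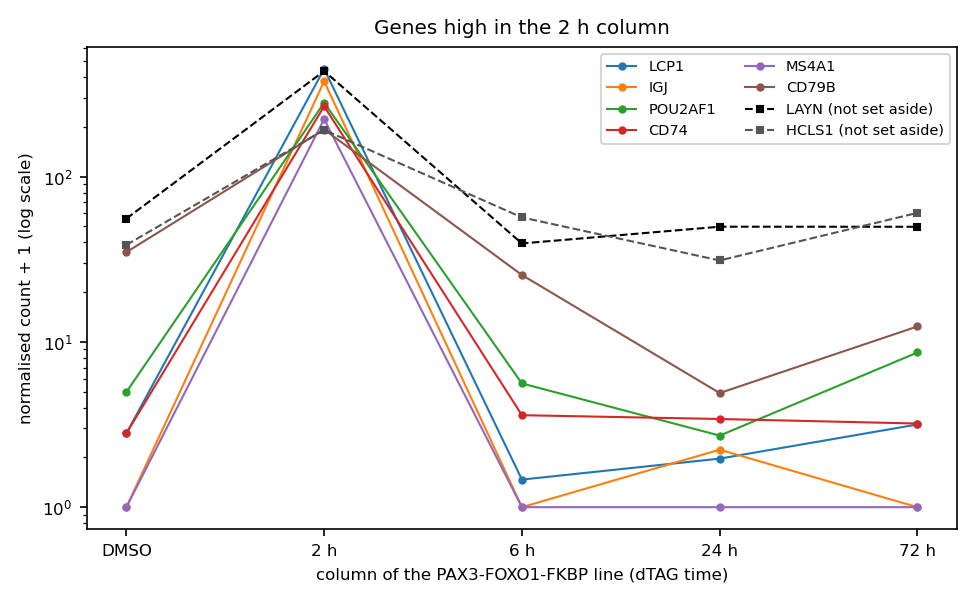
Normalised count plus 1 (log scale) in the 5 columns of the PAX3-FOXO1-FKBP line for the 6 set-aside genes with the highest count at 2 h, and for LAYN and HCLS1, which were not set aside. Each line is a gene and each point a pooled column. All 8 genes peak at 2 h, where LCP1 is at 448 and MS4A1 at 222, and at 6 h they are closer to their DMSO level.

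At 2 h of dTAG, 41 of the 12325 genes exceeded their DMSO level by at least 2-fold (0.333%) and 34 were at least 2-fold lower (0.276%), 75 in all (0.609%). The median log2 change of all genes was -0.00, and the middle 50% of genes lay between -0.17 and 0.16. Log2 changes use a prior count of 2 in both columns, which shrinks those of low genes. With a threshold of 1.5-fold, 248 genes (2.01%) were higher and 250 (2.03%) lower, 498 in all (4.04%). Just inside the 2-fold threshold were MYBPH at 1.02, ANKRD1 at 1.02 and WNT9A at 1.04 on the higher side, and CCDC154 at -1.01, RELN at -1.01 and ZBED6 at -1.03 on the lower side. Just outside were PPIG at 0.996, TRIM22 at 0.98 and FABP3 at 0.98, and EFNB2 at -0.99, RGP1 at -0.99 and LOC650623 at -0.98.

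The FOXO1-FKBP line had 4 of 11980 genes (0.0334%) that were 2-fold above its own DMSO column at 2 h and 5 below it (0.0417%), 9 in all (0.0751%). Past 1.5-fold were 37 higher (0.309%) and 45 lower (0.376%). There the middle 50% of genes lay between -0.083 and 0.073, a narrower spread. Of the 41 higher genes 27 were measured in that line, with changes of -0.35 to 0.51 and a median of 0.11. Of the 34 lower genes 25 were measured, with a median of -0.072. No higher gene was 1.5-fold higher there, and 1 lower gene, the read-through SLMO2-ATP5E, was 1.5-fold lower (-0.64). Where both lines measured a gene, the difference of the 2 log2 changes was at least 1 in 40 of 11764 genes (0.34%) and at most -1 in 36 (0.306%), together 0.646%. The lines were not tested against each other.

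The spread between single libraries can be seen in the parental and clone libraries, which were sequenced without dTAG and normalised separately. The 2 libraries of a group differed by at least 2-fold in 0.309% of 12307 genes in parental cells, 3.49% in clone 4, 0.991% in clone 10, 2.096% in clone 11 and 1.54% in clone 12. At 2 h of dTAG 0.609% of genes differed from DMSO by that much, between columns that each pool 2 samples. Among the 34 lower genes, 10 had a gap between the 2 libraries of some group at least as large as their change at 2 h. Among the 41 higher genes, 13 did. No such count was made over all genes. The 10 lower genes are PROX1, MUC2, ANO9, DOCK5, FOXC2, INS-IGF2, KIAA0754, LOC100652999, NCOA2 and ZBED6. The 13 higher genes are ALDH1A1, ANKRD1, BPIFB4, C15orf38-AP3S2, HNRNPA1P10, ID1, LOC728640, MALAT1, MT1X, MYBPH, NUP210, RAD51L3-RFFL and TPD52. Of the 12 largest decreases with plain gene names these were PROX1 and MUC2, and of the 12 largest increases there were 0. The largest gaps of those genes were 2.68 for PROX1 and 1.80 for HFE2 on the log2 scale. TACR3 lay between 1.86 and 11.9 CPM in the clones and HS3ST3B1 between 2.55 and 25.4 CPM, so baseline levels differ widely from clone to clone. STX11 was steadier, at 15.9 to 35.4 CPM with a largest gap within a group of 0.099.

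Transcript length moved with the 2 h change. Across 11892 genes with a known length, the rank correlation of length with log2 change was -0.30 in the PAX3-FOXO1-FKBP line and -0.032 in the FOXO1-FKBP line (11555 genes). This is a description over genes that share the same columns, and genes are not replicates. The longest annotated transcript had a median of 2234 nt for the 41 higher genes, 4397 nt for the 34 lower genes and 3770.5 nt for all. Along the time course of the PAX3-FOXO1-FKBP line the correlation was -0.25 at 6 h, -0.018 at 24 h and -0.28 at 72 h. In the FOXO1-FKBP line it was -0.35 at 6 h, 0.30 at 24 h and -0.47 at 72 h. A trend on length was thus not particular to the PAX3-FOXO1-FKBP line. After removal of the trend on length and GC content, 37 of 39 higher genes with a length and 25 of 32 lower genes were still past 2-fold. The part of length in single changes was not tested, and corrected values are given where they bring a gene inside 2-fold.

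**Figure D2:**
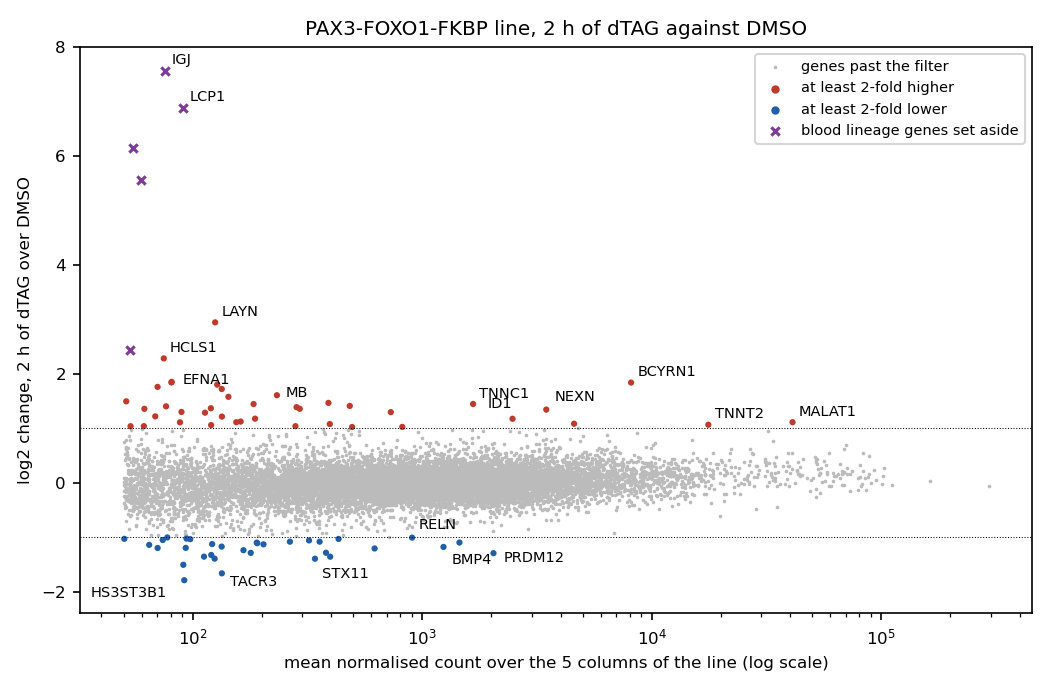
Log2 change at 2 h of dTAG over DMSO (vertical) against the mean normalised count over the 5 columns (horizontal, log scale) in the PAX3-FOXO1-FKBP line, with 1 point per gene that passed the filter. Red points are the 41 genes at least 2-fold higher, blue points the 34 lower ones and crosses the 5 set-aside blood genes that passed the filter, and dotted lines mark 2-fold. The set-aside genes IGJ and LCP1 stand highest, and the read-through BIVM-ERCC5 lies below the axis.

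Promoter windows of 4 of these genes are printed as RefSeq gives them, 250 bases before to 50 after the annotated start on build GRCh38.p14, read 5′ to 3′ on the gene's strand. TACR3 and NDST4 stand for the lower genes and HFE2, listed by RefSeq as HJV, and TNNT2 for the higher ones. They were chosen, after their values and windows had been seen, because each holds the E-box word CAGCTG. Capitals mark CAGCTG, the homeodomain word TAATTA, the paired-domain word GTCACG and the TATA word TATAAA on either strand. In TACR3, TAATTA and CAGCTG stand directly side by side.
TACR3 (chr4:103719936-103720235, minus strand): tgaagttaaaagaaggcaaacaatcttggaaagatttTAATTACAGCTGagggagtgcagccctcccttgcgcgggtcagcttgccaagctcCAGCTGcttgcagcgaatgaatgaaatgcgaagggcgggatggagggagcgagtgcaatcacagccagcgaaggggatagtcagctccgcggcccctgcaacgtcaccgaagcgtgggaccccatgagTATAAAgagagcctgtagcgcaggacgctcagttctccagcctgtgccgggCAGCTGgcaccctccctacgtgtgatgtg
NDST4 (chr4:115113571-115113870, minus strand): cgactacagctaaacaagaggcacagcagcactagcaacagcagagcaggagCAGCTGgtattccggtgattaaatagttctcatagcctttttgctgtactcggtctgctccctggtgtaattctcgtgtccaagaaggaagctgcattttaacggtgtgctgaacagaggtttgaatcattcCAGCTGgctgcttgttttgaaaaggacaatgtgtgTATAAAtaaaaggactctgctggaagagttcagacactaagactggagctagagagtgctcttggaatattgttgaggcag
HFE2 (chr1:146021686-146021985, minus strand): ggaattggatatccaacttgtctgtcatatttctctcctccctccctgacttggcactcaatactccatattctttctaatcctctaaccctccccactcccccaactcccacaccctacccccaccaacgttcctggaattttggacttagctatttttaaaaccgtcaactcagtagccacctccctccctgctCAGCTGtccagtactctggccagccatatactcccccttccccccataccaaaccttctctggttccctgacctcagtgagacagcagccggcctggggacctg
TNNT2 (chr1:201377631-201377930, minus strand): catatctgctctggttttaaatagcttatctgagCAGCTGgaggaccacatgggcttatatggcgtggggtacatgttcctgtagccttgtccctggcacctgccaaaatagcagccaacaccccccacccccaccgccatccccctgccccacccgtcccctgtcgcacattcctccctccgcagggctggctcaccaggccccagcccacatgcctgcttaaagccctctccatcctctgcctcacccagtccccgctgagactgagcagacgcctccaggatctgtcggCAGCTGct

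CAGCTG is a form of E-box that myogenic factors such as MYOD1 bind, and PAX3 binds DNA through a paired domain and a homeodomain. On either strand CAGCTG was in 10 of 30 windows of higher genes (33.3%) and in 8 of 21 windows of lower genes (38.1%). It was in 17.2% of 9760 windows of genes that passed the filter and in 17.9% of all 35116 windows. TAATTA was in 3.33% of windows of higher genes, 9.52% of lower genes and 1.91% of genes that passed the filter (4.84% of all windows). GTCACG was in 13.3% and 19.0% of the windows of higher and lower genes and in 14.3% of genes that passed (9.02% of all). TATAAA was in 13.3% and 23.8% of the windows of higher and lower genes and in 5.29% of genes that passed (11.5% of all). These shares rest on few genes. A match is a description, not a binding site, and the fusion is known to act largely at enhancers far from such windows.

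Genes lower at 2 h were led by surface receptors, enzymes of heparan sulfate and neural regulators, and 11 of the 12 largest decreases had a negative value at every later time. SOSTDC1 is the exception. The rule for these 12 leaves out read-through, LOC and open reading frame names. BIVM-ERCC5, INS-IGF2, LOC100652999 and SLMO2-ATP5E are the 4 such names among the 34, and read-through names share reads with their parent genes, so their values are uncertain. BIVM-ERCC5 had 0.0512 normalised counts at 2 h of dTAG, against 146 in DMSO, and 203 at 24 h.

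Among enzymes of heparan sulfate, the sugar chain on cell surface proteoglycans, 3 of 18 measured genes were 1.5-fold lower and 0 higher, against 2.03% lower and 2.01% higher among all genes. This list and those below were chosen with earlier results of these data known, so such shares are descriptions only. The lists overlap, and a gene on several lists is counted in each. HS3ST3B1, a 3-O-sulfotransferase, had 71.6 normalised counts at 2 h of dTAG, against 253 in DMSO (log2 change -1.79, 95% counting interval -2.20 to -1.44). This was the largest decrease with a plain gene name, and its values were -3.13, -1.79 and -2.73 at 6, 24 and 72 h. In the FOXO1-FKBP line HS3ST3B1 was below the filter, with 41.8 at 2 h against 62.4 in DMSO. NDST4, an N-deacetylase and N-sulfotransferase, had 163 normalised counts at 2 h of dTAG, against 387 in DMSO (log2 change -1.24, 95% counting interval -1.52 to -0.99). Its 2 columns were level in the FOXO1-FKBP line, with 197 at 2 h against 199 in DMSO. The third, HS3ST3A1, a close relative of HS3ST3B1 whose reads may be partly shared, had 285 normalised counts at 2 h of dTAG, against 564 in DMSO (log2 change -0.98).

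G protein-coupled receptors, which carry signals of neurotransmitters, lipids and peptides across the membrane, held 5 of 17 measured list members that were 1.5-fold lower (2.03% of all genes) and 0 higher. This list, like the neural list below, was chosen with earlier results of these data known. TACR3, the receptor of neurokinin B, had 124 normalised counts at 2 h of dTAG, against 397 in DMSO (log2 change -1.66, 95% counting interval -1.98 to -1.40). It was level in the FOXO1-FKBP line, at 126 at 2 h against 125 in DMSO. CNR1, the brain cannabinoid receptor and a published fusion target, had 117 normalised counts at 2 h of dTAG, against 303 in DMSO (log2 change -1.36, 95% counting interval -1.69 to -1.07). TACR3 was further down later, at -2.90, -2.45 and -3.81 at 6, 24 and 72 h, and so was CNR1, at -1.97, -3.004 and -3.34 at 6, 24 and 72 h. S1PR1, a receptor of sphingosine 1-phosphate, had 367 normalised counts at 2 h of dTAG, against 851 in DMSO (log2 change -1.21, 95% counting interval -1.39 to -1.04). Unlike these receptors S1PR1 was closest to DMSO at 24 h, with log2 values of -0.68, -0.17 and -0.52 at 6, 24 and 72 h. GPRC5A, a retinoic acid-induced orphan receptor, had 336 normalised counts at 2 h of dTAG, against 544 in DMSO (log2 change -0.69).

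Regulators of neural and sensory development were the next group, with 5 of 15 measured members of that list 1.5-fold lower (2.03% of all genes) and 0 higher. PRDM12, POU4F1 and TFAP2B among them are counted again with the published fusion targets below, as is CNR1. PRDM12, a factor of pain-sensing neurons, had 2269 normalised counts at 2 h of dTAG, against 5569 in DMSO (log2 change -1.29, 95% counting interval -1.37 to -1.23). The FOXO1-FKBP line had 3999.7 at 2 h against 3817 in DMSO. The time course took PRDM12 to -2.72, -2.45 and -3.44 at 6, 24 and 72 h. Libraries without dTAG also differed among themselves, since PRDM12 lay between 85.5 and 268 CPM in clones and between 184 and 186 CPM in parental cells. PROX1, a homeobox factor of lymphatic vessels and neurons, had 55.8 normalised counts at 2 h of dTAG, against 162 in DMSO (log2 change -1.51, 95% counting interval -2.003 to -1.11). It was nearer to DMSO at 24 h than at the other times, at -1.62, -0.30 and -1.56 at 6, 24 and 72 h. The sensory neuron factor POU4F1 had 3855 normalised counts at 2 h of dTAG, against 6923 in DMSO (log2 change -0.84), and TFAP2B, a neural crest factor used as a rhabdomyosarcoma marker, had 913 normalised counts at 2 h of dTAG, against 1567 in DMSO (log2 change -0.78).

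Of the other large decreases LGR5, a receptor of R-spondins that strengthens Wnt signalling, had 199 normalised counts at 2 h of dTAG, against 489 in DMSO (log2 change -1.29, 95% counting interval -1.54 to -1.06). It continued to -2.402, -2.56 and -3.81 at 6, 24 and 72 h. STX11, a syntaxin of vesicle fusion, had 389 normalised counts at 2 h of dTAG, against 1000.5 in DMSO (log2 change -1.36, 95% counting interval -1.53 to -1.20), and RELN, the secreted guidance protein reelin, had 1272 normalised counts at 2 h of dTAG, against 2561 in DMSO (log2 change -1.01, 95% counting interval -1.11 to -0.91). RELN was just past 2-fold at 2 h, at -0.86 after the length correction, and was among the steepest of all later, at -2.89, -3.73 and -4.12 at 6, 24 and 72 h. TOX3, an HMG box factor, had 276 normalised counts at 2 h of dTAG, against 675 in DMSO (log2 change -1.29, 95% counting interval -1.496 to -1.09), with -0.44 in the FOXO1-FKBP line. MUC2, a secreted mucin with a very long transcript, had 265 normalised counts at 2 h of dTAG, against 701 in DMSO, and its log2 change of -1.40 was -1.11 after the length correction.

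Both secreted BMP pathway genes among the 34 were closer to DMSO later than at 2 h, or above it. SOSTDC1, an antagonist of BMP and Wnt signals, had 38.6 normalised counts at 2 h of dTAG, against 99.9 in DMSO (log2 change -1.33, 95% counting interval -1.95 to -0.84). Later it was -0.55, -0.064 and 1.57 at 6, 24 and 72 h, thus lowest at 2 h and above DMSO at 72 h. BMP4, a BMP ligand, had 826 normalised counts at 2 h of dTAG, against 1873 in DMSO (log2 change -1.18, 95% counting interval -1.30 to -1.06), and its later log2 values of -0.73, -0.75 and -0.59 at 6, 24 and 72 h were smaller.

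The remaining lower genes were picked out after their values were seen. TNFAIP3, an inhibitor of NF-kB signalling, had 1469 normalised counts at 2 h of dTAG, against 3148 in DMSO (log2 change -1.10, 95% counting interval -1.19 to -1.01), and was level in the FOXO1-FKBP line with 762 at 2 h against 769 in DMSO. FOXC2, a forkhead factor of mesoderm, had 212 normalised counts at 2 h of dTAG, against 467 in DMSO (log2 change -1.13). KLF4, a zinc finger factor of the immediate-early list, had 335 normalised counts at 2 h of dTAG, against 712 in DMSO (log2 change -1.08). All 3 were lower still at 6, 24 and 72 h, at between -1.71 and -2.06 for TNFAIP3, between -1.95 and -2.104 for FOXC2 and between -1.45 and -1.57 for KLF4. HAS2, a hyaluronan synthase, had 282 normalised counts at 2 h of dTAG, against 579.5 in DMSO (log2 change -1.03) and was at 0.21 at 72 h. The regulators POU3F3, OSR2 and SP9 were at -1.04 (corrected -0.97), -1.10 and -1.053, and the protocadherin PCDHGA1, whose reads overlap those of its gene cluster, was at -1.20. PTCHD2 was at -1.20, NDNF, a neuron-derived secreted factor, at -1.17, and DOCK5, an exchange factor for Rac, at -1.13. CCDC154 was at -1.01 (corrected -0.91) and ANO9, of the anoctamin family, at -1.03 (corrected -0.83). NCOA2 was at -1.08 (just inside 2-fold when corrected), KIAA0754 at -1.11 (corrected -0.97) and ZBED6 at -1.03 (corrected -0.92). These long or multi-gene transcripts had log2 values of -0.021, -0.088 and -0.11 at 24 h, and a link to length was not tested.

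Genes higher at 2 h were led by sarcomere and muscle genes, with a group of signal regulators and, separately, the genes raised in the 2 h column alone. Of 50 muscle contractile and differentiation genes measured, 18 were 1.5-fold higher and 0 lower, and 37 had a value above 0. Over all genes 2.01% were 1.5-fold higher, and the muscle list was chosen with earlier results of these data known. The filter on low values used the mean of all columns of the line, later times included. Members low at 2 h and in DMSO, such as HFE2 and MYPN, thus passed through their later columns. The effect of this on the share and on the list's medians was not tested. The list had a median of 0.36, against -0.00 for all genes, and of 0.042 in the FOXO1-FKBP line, where 0 of 43 measured members were 1.5-fold higher or lower. Its medians at later times were 0.51, 1.06 and 2.56 at 6, 24 and 72 h.

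TNNT2, the cardiac troponin T that developing skeletal muscle also makes, had 15218 normalised counts at 2 h of dTAG, against 7276 in DMSO (log2 change 1.06, 95% counting interval 1.02 to 1.10). TNNT2 in the FOXO1-FKBP line had 5690.0 at 2 h against 5006 in DMSO. TNNC1, troponin C of slow and cardiac muscle, had 327 normalised counts at 2 h of dTAG, against 119 in DMSO (log2 change 1.45, 95% counting interval 1.16 to 1.77). Its 2 columns in the FOXO1-FKBP line were nearly equal, with 179 at 2 h against 179 in DMSO. MB, the oxygen carrier myoglobin, had 94.03 normalised counts at 2 h of dTAG, against 29.6 in DMSO (log2 change 1.61, 95% counting interval 1.06 to 2.29). TNNC1 was further up later, at 1.89, 3.05 and 5.73 at 6, 24 and 72 h, and so was MB, at 2.45, 3.80 and 3.78 at 6, 24 and 72 h. MYPN, a Z-disc protein, had 40.2 normalised counts at 2 h of dTAG, against 17.6 in DMSO (log2 change 1.11, 95% counting interval 0.39 to 2.103), and HFE2, hemojuvelin, a BMP co-receptor made in muscle, had 40.4 normalised counts at 2 h of dTAG, against 9.75 in DMSO (log2 change 1.85, 95% counting interval 1.048 to 3.23). MYPN and HFE2 had few counts, and their intervals are wide.

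Of the rest of the muscle list MYH7, the slow myosin heavy chain, was at 1.08 and MYBPH, a myosin-binding protein, at 1.02. UNC45B, a myosin chaperone, was at 0.96, MYH2 at 0.91, TNNC2 at 0.89, MYL1 at 0.87 and CASQ2, a calcium store protein, at 0.81. Muscle genes off that list were also past 2-fold. NEXN, an actin-binding Z-disc protein chosen after its value was seen, had 2841 normalised counts at 2 h of dTAG, against 1119 in DMSO (log2 change 1.342, 95% counting interval 1.25 to 1.44). ANKRD1, a muscle ankyrin repeat protein that the YAP/TEAD list holds, had 532 normalised counts at 2 h of dTAG, against 260.4 in DMSO, and its log2 change of 1.02 was 0.87 after the length correction. ANKRD2, its relative, was at 1.21 and SYNPO, an actin-associated protein, at 1.04.

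For the factors that direct the muscle programme few genes were past 1.5-fold. These lists are too short to be read against the share of all genes, which is 4.04% in either direction. Of 10 myogenic transcription factors measured 0 were 1.5-fold higher and 1 was lower. That gene is EYA1, a coactivator and phosphatase of muscle precursors, with 1131 normalised counts at 2 h of dTAG, against 1991 in DMSO (log2 change -0.82). MYOG, the factor of terminal differentiation, had 14202 normalised counts at 2 h of dTAG, against 9687 in DMSO (log2 change 0.55), and MYOD1 was at -0.44. Of 15 core transcription factors of the tumour, 0 were 1.5-fold higher or lower, and MYCN had 3963 normalised counts at 2 h of dTAG, against 4536 in DMSO (log2 change -0.19).

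**Figure D3:**
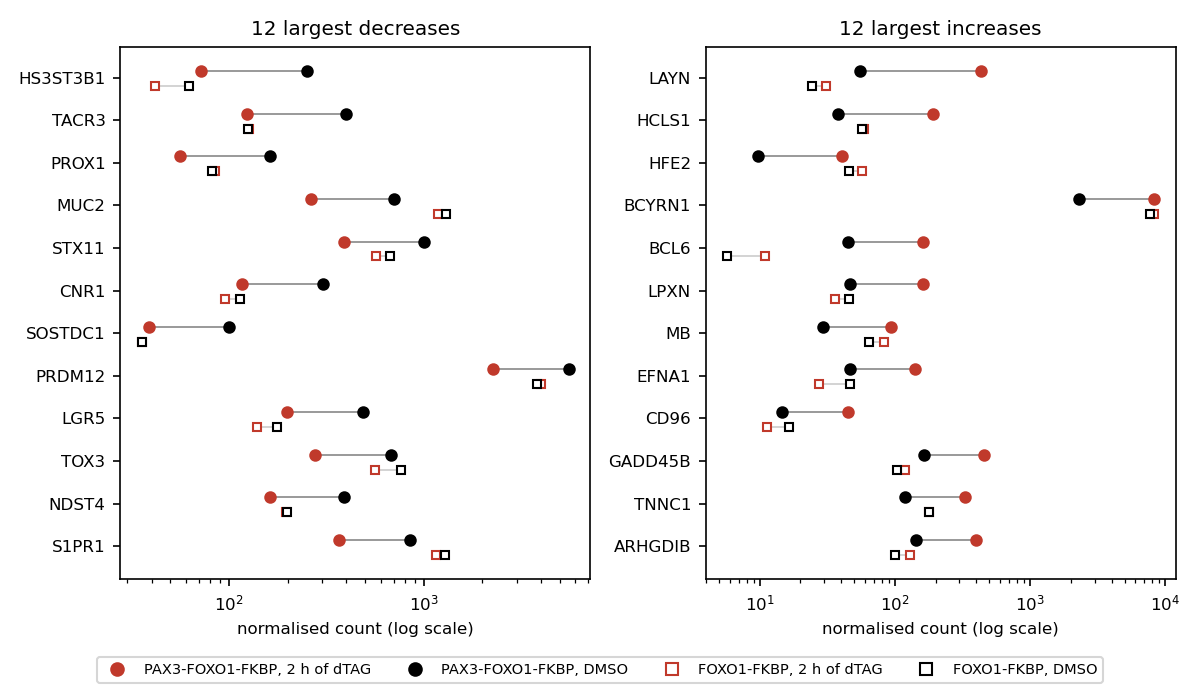
Normalised counts (log scale) of the 12 largest decreases (left) and the 12 largest increases (right). Filled circles are the PAX3-FOXO1-FKBP line and open squares the FOXO1-FKBP line, red for 2 h of dTAG and black for DMSO, and each symbol is 1 pooled column. Circles are separated in every gene, as the rule for choosing them requires, and in the FOXO1-FKBP line no gene that passed the filter there was past 1.5-fold.

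Signal regulators among the higher genes belong to several pathways. BCL6, a BTB zinc finger repressor that FOXO factors and lymphocytes also use, had 160.2 normalised counts at 2 h of dTAG, against 44.6 in DMSO (log2 change 1.80, 95% counting interval 1.38 to 2.36). BCL6 is also expressed by B cells, and it was high in later columns too, at 1.62, 1.82 and 1.51 at 6, 24 and 72 h. Whether part of its counts at 2 h has the source of the set-aside transcripts was not tested. EFNA1, an ephrin ligand, had 142 normalised counts at 2 h of dTAG, against 46.2 in DMSO (log2 change 1.58, 95% counting interval 1.14 to 2.12), with 2.13, 1.68 and 1.79 at 6, 24 and 72 h. In the FOXO1-FKBP line EFNA1 was below the filter and went the other way, with 27.4 at 2 h against 46.3 in DMSO. GADD45B, a stress-responsive immediate-early gene, had 457 normalised counts at 2 h of dTAG, against 164 in DMSO (log2 change 1.47, 95% counting interval 1.22 to 1.74), and 118 at 2 h against 104 in DMSO in the FOXO1-FKBP line.

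The BMP and TGF-beta pathway list, which holds ligands, receptors and feedback genes, had 6 of 25 measured members 1.5-fold higher and 1 lower (2.01% and 2.03% of all genes), and 3 were 2-fold higher. SMAD7, an inhibitor of receptor SMADs, had 288 normalised counts at 2 h of dTAG, against 126 in DMSO (log2 change 1.18, 95% counting interval 0.89 to 1.49). ID1, an inhibitor of MYOD1-type factors, had 3353 normalised counts at 2 h of dTAG, against 1485 in DMSO (log2 change 1.17, 95% counting interval 1.09 to 1.26). The FOXO1-FKBP line had values in the same direction, 0.42 for SMAD7 and 0.47 for ID1. ID2, the relative of ID1, was at 0.71 in the PAX3-FOXO1-FKBP line and at 0.90 in the FOXO1-FKBP line. ID1 also differed by up to 2.91 on the log2 scale between the 2 libraries of 1 clone. The third 2-fold member of this list is HFE2, already given, and the lower one is BMP4. HFE2 is also counted on the muscle list, and ID1 and ID2 are counted again among the MYOD1 partners and ID genes below.

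Other higher genes were singled out after their values were seen. ALDH1A1, a retinaldehyde dehydrogenase, had 583 normalised counts at 2 h of dTAG, against 218 in DMSO (log2 change 1.41) and next to no counts in the FOXO1-FKBP line, with 2.63 at 2 h against 3.87 in DMSO. The paralemmin PALM3 was at 1.36, FOLR1, a folate receptor, at 1.37, and MT1X, a metallothionein whose family members share sequence, at 1.39. HMGN5, a nucleosome-binding protein, was at 1.30, LMO2, a LIM-only cofactor of blood and endothelial cells, at 1.06, and BPIFB4 at 1.22. WNT9A, a Wnt ligand, had 35.2 normalised counts at 2 h of dTAG, against 16.1 in DMSO. Both values are below the filter mean of 50, so WNT9A passed through its later columns. TMEM184A was at 1.04.

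Some RNAs were higher at 2, 6 and 72 h than at 24 h. BCYRN1, a short RNA derived from a repeat family whose reads may be shared with other copies, had 8271 normalised counts at 2 h of dTAG, against 2311 in DMSO (log2 change 1.84, 95% counting interval 1.77 to 1.91). Later values of BCYRN1 were 1.89, 0.34 and 3.002 at 6, 24 and 72 h. MALAT1, a nuclear noncoding RNA, had 49316 normalised counts at 2 h of dTAG, against 22834 in DMSO (log2 change 1.11) and was at 0.93, 0.051 and 1.53 at 6, 24 and 72 h. HMGN5 had the same course, at 1.33, -0.21 and 1.32 at 6, 24 and 72 h. All 3 were closest to the DMSO level at 24 h, and a link to transcript length was not tested. HNRNPA1P10, a pseudogene that shares reads with HNRNPA1, was at 1.08 at 2 h (corrected 0.82) and is uncertain. The higher read-through and LOC names are C15orf38-AP3S2, RAD51L3-RFFL, LOC645638 and LOC728640, at 1.84, 1.72, 1.29 and 1.11.

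The 5 genes at least 2 times higher at 2 h than in every other column were closer to DMSO at 6 h. LAYN had 435 normalised counts at 2 h of dTAG, against 54.8 in DMSO (log2 change 2.94, 95% counting interval 2.59 to 3.41) and then 38.4, 48.8 and 48.8 at 6, 24 and 72 h. HCLS1, a leukocyte signalling adaptor, had 191 normalised counts at 2 h of dTAG, against 37.6 in DMSO, and then 55.7, 30.1 and 59.4. LPXN, a focal adhesion protein of leukocytes, had 161 normalised counts at 2 h of dTAG, against 46.2 in DMSO, and then 42.1, 50.97 and 50.6. ARHGDIB, a signalling inhibitor abundant in blood cells, had 395 normalised counts at 2 h of dTAG, against 144 in DMSO and 144 at 6 h, and the nuclear pore gene NUP210 had 137 normalised counts at 2 h of dTAG, against 52.4 in DMSO and 43.7 at 6 h. None of the 5 was past 1.5-fold in the FOXO1-FKBP line. IFI30, a lysosomal reductase of antigen-presenting cells, and TPD52 followed a similar course without meeting that limit, at 1.30 and 1.40 at 2 h and at 0.39 and 0.40 at 6 h. CD96, a lymphocyte surface receptor, was at 1.49 at 2 h (1.58 with a prior count of 0.5) but stayed high, at 1.12, 1.31 and 2.93 at 6, 24 and 72 h. Without every gene that was at least 2 times higher at 2 h than in every other column, 36 genes were 2-fold higher in place of 41.

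**Figure D4:**
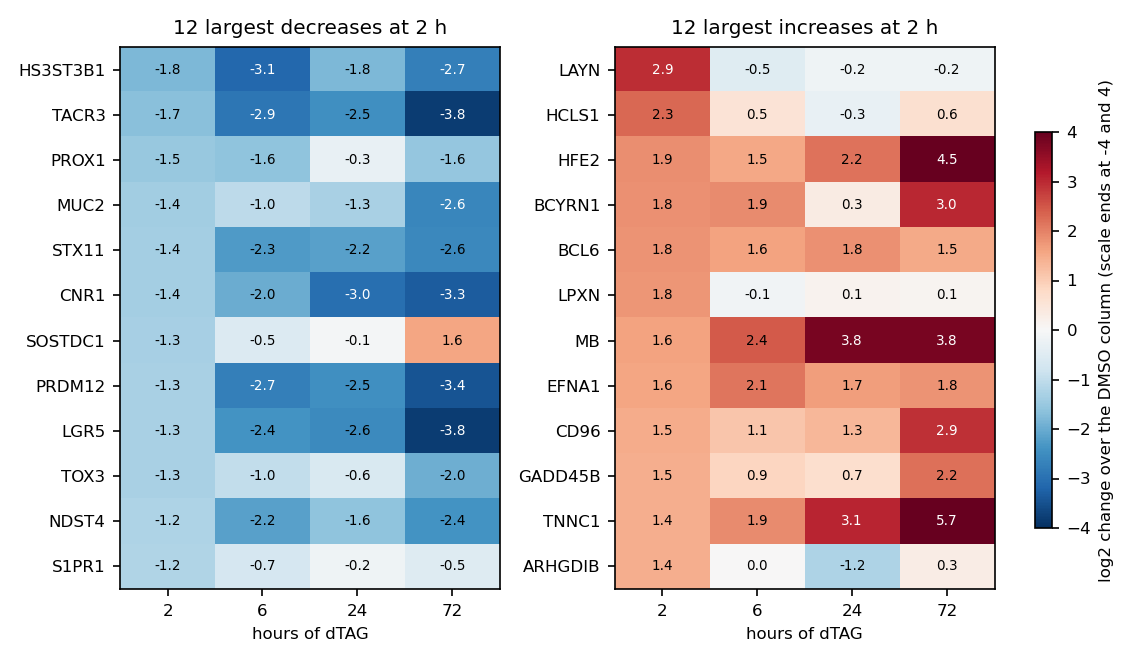
Log2 change over the DMSO column of the PAX3-FOXO1-FKBP line at 2, 6, 24 and 72 h of dTAG (columns) for the 12 largest decreases and 12 largest increases at 2 h (rows). Colour and printed value give the change, blue for lower and red for higher, and all 4 times share 1 DMSO column. TACR3 and PRDM12 deepen after 2 h while S1PR1 and SOSTDC1 do not, and LAYN, HCLS1, LPXN and ARHGDIB are highest at 2 h.

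The published PAX3-FOXO1 targets held 7 of 38 measured genes that were 1.5-fold lower and 0 that were higher, against 2.03% of all genes lower. Their median log2 change was -0.39, 31 were below 0, and in the FOXO1-FKBP line the median was -0.032 with 0 of 37 past 1.5-fold. PRDM12 and CNR1 were the 2 past 2-fold. PDGFRA, a receptor of platelet-derived growth factor, had 343 normalised counts at 2 h of dTAG, against 630.2 in DMSO (log2 change -0.87). FGFR4, a fibroblast growth factor receptor that marks the tumour, had 18628 normalised counts at 2 h of dTAG, against 28427 in DMSO (log2 change -0.61). FOXF1, a forkhead factor chosen after its value was seen, was at -0.68. The list's median was -0.77, -0.67 and -0.89 at 6, 24 and 72 h. Of the 7 lower targets, PRDM12, POU4F1 and TFAP2B are also on the neural list and CNR1 on the G protein-coupled receptor list. PDGFRA and FGFR4 are also on the receptor tyrosine kinase list, so the shares of these lists are not separate evidence.

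Receptor tyrosine kinases had 7 of 24 measured members 1.5-fold lower and 0 higher, against 2.03% and 2.01% of all genes, with a median of -0.27. EGFR, the epidermal growth factor receptor, had 167 normalised counts at 2 h of dTAG, against 307 in DMSO (log2 change -0.87), EPHA4, an ephrin receptor, 803 normalised counts at 2 h of dTAG, against 1309 in DMSO (log2 change -0.70), and DDR2, a collagen receptor, 347 normalised counts at 2 h of dTAG, against 556 in DMSO (log2 change -0.68). After correction for length and GC content 4 were 1.5-fold lower and 1 higher, with a median of -0.12. The genes of ERK feedback, which respond to such receptors, had a median of -0.22 and 1 of 16 members 1.5-fold lower, and DUSP6, an ERK phosphatase, was at -0.89.

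Counts of PAX3 also hold reads of the fusion's own transcript. PAX3 had 485 normalised counts at 2 h of dTAG, against 782 in DMSO (log2 change -0.69, 95% counting interval -0.85 to -0.53), and 493 at 2 h against 521 in DMSO in the FOXO1-FKBP line. FOXO1, which shares reads with the fusion in the same way, had 3346 normalised counts at 2 h of dTAG, against 3742 in DMSO (log2 change -0.16, 95% counting interval -0.23 to -0.095) and 2604 at 2 h against 2640.4 in DMSO in the FOXO1-FKBP line. dTAG acts on protein, so neither mRNA is a check of the labels.

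Smaller lists are given by their counts past 1.5-fold, beside 2.01% of all genes higher and 2.03% lower. Counts of 1 or 2 in lists this short are too few to be read against those shares. Of 11 MYOD1 partners and ID genes, 3 were 1.5-fold higher, with a median of 0.36. Of 18 YAP/TEAD-responsive genes 3 were higher, among them CYR61, a matricellular protein, at 0.77 and AMOTL2, an angiomotin, at 0.68. Of 5 zinc and metal genes 3 were 1.5-fold higher and 1 lower, with MT2A, a metallothionein, at 0.97 and the zinc importer SLC39A10 at -0.69. Of 17 Notch pathway genes 2 were higher and 1 lower, of 22 Wnt genes 1 and 3, of 22 ephrin and guidance genes 1 and 2, and of 24 immediate-early genes 2 and 2. Of 14 neuronal surface and synapse genes 3 were lower and 0 higher.

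Growth and stress lists had 0 or 1 member past 1.5-fold. Lists this short cannot be read against the 4.04% of all genes that passed it in either direction. No member was past it among 30 MYC and ribosome biogenesis genes (median 0.17), 25 cyclins and CDK inhibitors, 24 G2/M genes (median -0.061), 18 p53-responsive genes (median 0.18), 18 cholesterol synthesis genes, 13 hypoxia genes and 12 interferon-stimulated genes. One member was 1.5-fold higher and 0 lower among 24 S phase genes, 13 BCL2 family genes, 17 ATF4-responsive genes, 20 FOXO-responsive genes and 12 matrix and fibroblast genes. Heat shock genes differed between the lines in their values, with a median of 0.25 over 16 genes in the PAX3-FOXO1-FKBP line and of -0.35 over 17 in the FOXO1-FKBP line, where 6 were 1.5-fold lower. Of other cell types 3 epithelial and 3 endothelial markers were measured, with EPCAM, an epithelial adhesion protein, at 0.69 and VWF, an endothelial clotting protein, at -0.96.

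**Figure D5:**
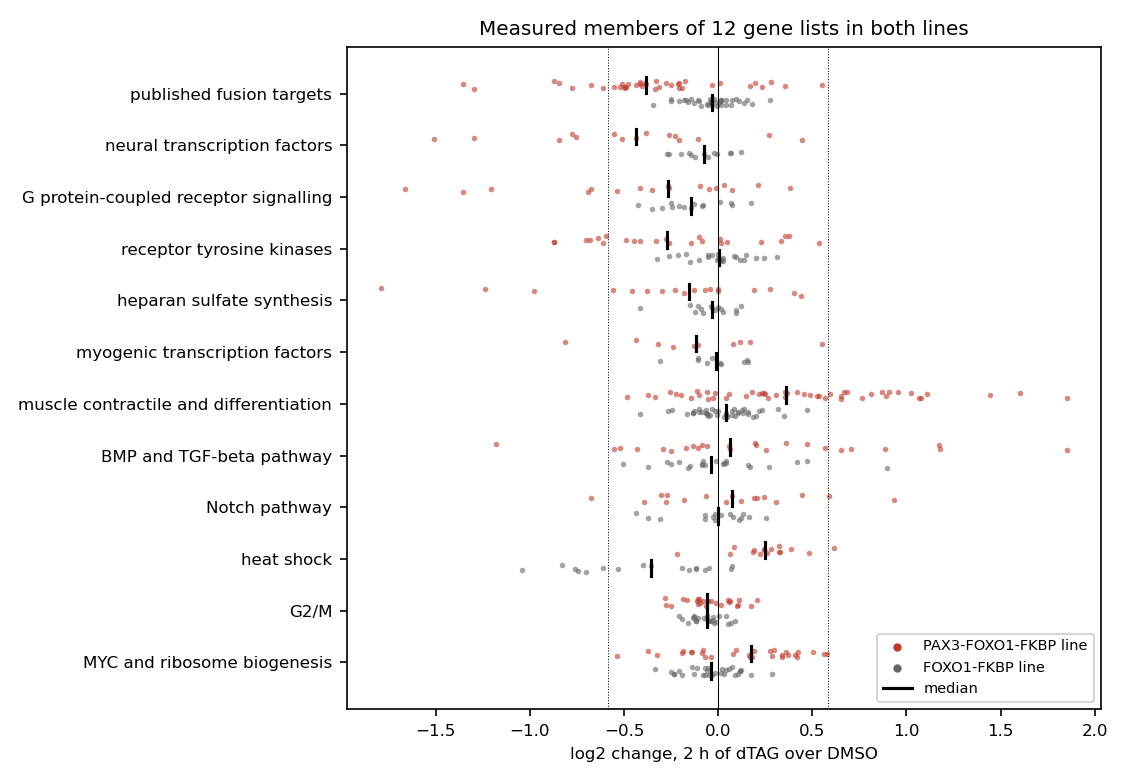
Log2 change at 2 h of dTAG over DMSO for the measured members of 12 gene lists, red for the PAX3-FOXO1-FKBP line and grey below it for the FOXO1-FKBP line. Each point is a gene, black bars are medians and dotted lines mark 1.5-fold. The muscle list extends to the right and the published targets, neural factors and G protein-coupled receptors to the left in the PAX3-FOXO1-FKBP line.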

How the data were processed

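Total RNA was taken with TRIzol and sequenced, per the labels' protocols. Tools listed in the submitters' processing notes are Bowtie2, Trimmomatic 0.32 and Cuffdiff 2.1.1, with genome build hg19. Their roles, the annotation and the strand setting are not stated. The time-course tables deposited by the authors hold estimated counts, 1 pooled column per condition, and 74.4% of the values in the PAX3-FOXO1-FKBP table are not whole. No source says whether a column is a sum or a mean of its 2 samples. The third deposited table holds read counts per parental or clone library, shown as CPM scaled on their own. Totals were 27561650 to 30466960 per column of the PAX3-FOXO1-FKBP line, 25863451 to 27381073 in the FOXO1-FKBP line and 17746684 to 26834005 per parental or clone library.

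Values were scaled with TMM (edgeR 4.0.16, R 4.3.3) over the 5 columns of a line. Calls needed at least 2-fold (prior count 2) and a mean normalised count of at least 50. The design assumed pooled columns, so no test was fitted. Exact Clopper-Pearson counting intervals (95%) treat values as reads, use no prior count and ignore scatter between samples. Left out were 4 rows with date-like names that match more than 1 gene, and 41 genes listed at 0 in a column where others hold at least 10, which include EEF1A1, at 0 at 2 h against 488088 in DMSO. Lengths came from GENCODE v29, and promoters from RefSeq (GRCh38.p14), neither of them the authors' build. Both were matched by symbol. Windows were found for 30 of 41 higher genes and 21 of 34 lower genes. Of the genes past 2-fold, 1 is counted but its values are not reported here.

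The comparison, the members and the 40 gene lists were chosen with earlier results of these data known. The rule for naming genes covers PAX3 and FOXO1, the 12 largest changes each way, and up to 4 members of each list that were 1.5-fold changed. It also covers 3 genes on each side of the threshold, the 6 set-aside genes with the highest counts, and the genes past 2-fold in the FOXO1-FKBP line. Not all of these are described. Some genes outside the rule are given too, such as MYOD1, MYCN, PTPRC, CD79A, CD24, HLA-DRA, CD3E and CD2. The scripts were tested on simulated data. Alternatives were library totals, DESeq2 1.42.0 size factors, other filters, prior counts and thresholds, and a correction for GC content and length.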

Additional observations from a re-analysis of the deposited data

Results flagged for a closer look

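C1orf151-NBL1 and INS-IGF2 were picked out because both columns of each line were measured and the change at 2 h of dTAG ran in opposite directions, past 2-fold in the FOXO1-FKBP line. The difference was not tested. C1orf151-NBL1 had 50.3 normalised counts at 2 h of dTAG, against 30.3 in DMSO in the PAX3-FOXO1-FKBP line (log2 change 0.70) and 18.1 at 2 h against 83.6 in DMSO in the FOXO1-FKBP line (log2 change -2.09). INS-IGF2 had 55.8 normalised counts at 2 h of dTAG, against 149.9 in DMSO in the PAX3-FOXO1-FKBP line (log2 change -1.39) and 123 at 2 h against 20.03 in DMSO in the FOXO1-FKBP line (log2 change 2.50). Both are read-through names that share exons with their parent genes, and how such reads were split in counting is not stated.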

How the results depend on the processing

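No paired analysis was possible because each condition is 1 pooled column, and for the same reason no replicate could be left out. The counts of genes past 2-fold in the PAX3-FOXO1-FKBP line were 39 higher and 40 lower with library totals, 41 and 35 with DESeq2 size factors, and 42 and 30 with the length and GC trend removed. They were 92 and 62 with a mean minimum of 20, 540 and 295 with none, and 248 and 250 with a threshold of 1.5-fold. With scaling and mean taken over the DMSO and 2 h columns only, they were 49 and 37. In the FOXO1-FKBP line the counts were 9 higher and 14 lower with a minimum of 20, 0 and 3 with 100, 270 and 156 with none, and 37 and 45 with a threshold of 1.5-fold. After that correction 3 were lower there. Genes whose change differed by 2-fold between lines numbered 86 higher and 92 lower with a minimum of 20, 23 and 18 with 100, 679 and 680 with none, and 260 and 303 with a threshold of 1.5-fold. Receptor tyrosine kinases that were 1.5-fold lower numbered 4 after the correction, and 13 blood lineage genes had at least 50 counts and were raised at 2 h alone. All 24 of the largest changes were still 2-fold under library totals, DESeq2 size factors, a prior count of 0.5 and the correction. Library totals moved the median log2 change of all genes by -0.038 and DESeq2 size factors by -0.0093. Setting aside every gene at least 2 times higher at 2 h than in every other column, an alternative chosen after the data were seen, left 36 higher and 34 lower. Pooled columns leave sampling depth as the one measurable error, and scatter between cultures is unknown.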

Other observations

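SLC30A1, CTSK, DNAJB4 and C21orf88 were past 2-fold at 2 h in the FOXO1-FKBP line, where dTAG acts on wild-type FOXO1, and inside it in the PAX3-FOXO1-FKBP line. SLC30A1, a zinc exporter, had a log2 change of 0.45 in the PAX3-FOXO1-FKBP line, and 138 normalised counts at 2 h against 56.4 in DMSO in the FOXO1-FKBP line (log2 change 1.26). CTSK, the collagen-degrading cathepsin K, was at 0.35 in the PAX3-FOXO1-FKBP line, and had 76.1 at 2 h against 32.9 in DMSO in the FOXO1-FKBP line (log2 change 1.16). DNAJB4, a heat shock co-chaperone, was at 0.33 in the PAX3-FOXO1-FKBP line, and had 423 at 2 h against 873 in DMSO in the FOXO1-FKBP line (log2 change -1.04). The open reading frame C21orf88 was at 0.11 in the PAX3-FOXO1-FKBP line and at -1.045 in the FOXO1-FKBP line. RPL21, a ribosomal protein gene with many pseudogene copies, had 416 normalised counts at 2 h in the PAX3-FOXO1-FKBP line, where it was listed at 0 in DMSO and is left out of the calls, and was at -1.07 in the FOXO1-FKBP line. The read-through PPAN-P2RY11 had 51.8 normalised counts at 2 h of dTAG, against 186 in DMSO in the PAX3-FOXO1-FKBP line (log2 change -1.80) and 47.2 at 2 h against 9.38 in DMSO in the FOXO1-FKBP line (log2 change 2.11), the opposite direction. It was left out of the calls in the PAX3-FOXO1-FKBP line because it is listed at 0 at 6 h. The read-through SERF2-C15ORF63, below the filter in the PAX3-FOXO1-FKBP line, was at -0.53 there and at -1.72 in the FOXO1-FKBP line. With 1 pooled column per condition the lines were not tested against each other.

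Genes raised in the 2 h column alone that are on no blood list, and that were picked out after their values were seen, include SYK, a kinase of B cell receptor signalling. It had 93.9 normalised counts at 2 h, 0.402 in DMSO, and was listed at 0 at 6, 24 and 72 h.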
